A study of Mus musculus with 115 samples.

Results

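Accessibility was described for constructs carrying the motifs of 7 factors, PKNOX1, TGIF1, CUX1, GBX2, OTX2, PAX6 and ARID3B, at 1 integration site in mouse embryonic stem cells. They form a named list of homeodomain and ARID factors, each taken from the unphased class by its construct name. CUX1 was also present in the nuc and non_nuc classes, which gives 9 constructs of 275 in the series. The members were also selected on earlier values of GCH methylation in the unphased class, in which most of these motifs had looked closed. For that reason the unphased values are given as a description, without p-values.

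The cells were of the 129S6/SvEvTac line and were labelled as embryonic stem cells. Libraries were pools of constructs inserted at the recombinase-mediated cassette exchange locus, and all groups used here share line, locus and the absence of any labelled treatment. The unphased class had 18 pools with 2 libraries each and 122 constructs, and the nuc and non_nuc classes had 24 constructs each with 3 libraries per construct. The names nuc, non_nuc and unphased are the submitters', and their construct names spell the first pair as nucleosomal and non_nucleosomal. The labels do not say whether replicates were grown separately, and the spread behind each p-value may be technical. Cell identity could not be checked, since only the inserted DNA was measured.

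In NOMe-seq a GpC methyltransferase marks cytosines that it can reach, and DNA wrapped in a nucleosome or covered by a bound protein stays unmarked. A GCH site (GC followed by A, C or T) therefore reads accessibility: a high percentage of methylated reads means open DNA. Homeodomain proteins recognise short AT-rich sequences through a helix laid in the major groove, and many bind as partners of other factors. ARID proteins bind AT-rich DNA through an unrelated fold. In embryonic stem cells, OTX2 is known for the move from naive to formative pluripotency and GBX2 for sustaining self-renewal, whereas PAX6 is a factor of eye and neural development.

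Positions are counted along each amplicon. In the unphased class the motif window ran from position 127 to 154, and the flank was the sites within 40 bp of it, at positions 101, 164 and 187. A level is the mean percentage of methylated reads over the sites of a region. The files give fractions without counts, so read depth was unknown and no counting error could be given. The median level of a library ranged from 37.1% to 62.3% over the 36 unphased libraries, so each member is set beside the median construct of its own library as well as beside the construct without a motif. That construct had a flank of 41.0% and 42.8% and a window of 42.4% and 41.7% in its 2 libraries.

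Beside PKNOX1, ARID3B and CUX1 motifs lay the 3 lowest flanks of all 122 unphased constructs. By difference from the median construct of their own libraries these flanks ranked 4, 5 and 6 from the lowest. TGIF1 was lower than its library's median construct by a smaller amount. OTX2 was low relative to the construct without a motif and to the class, at rank 15 from the lowest of 122, but not relative to its own pool, and PAX6 and GBX2 were not low. Relative to the construct without a motif, limma (adjusted p under 0.05) called 4 of the 7 flanks lower (ARID3B, CUX1, OTX2 and PKNOX1) and 0 higher, where 38% of the 121 constructs tested were called, 23.1% lower and 14.9% higher. Relative to the pool median it called 3 lower (ARID3B, CUX1 and PKNOX1), where 10% of 120 were called, 5.83% lower and 4.17% higher. In the windows, 5 were called lower and GBX2 higher against the construct without a motif, where 48.8% of constructs were called, 25.6% lower and 23.1% higher. Against the pool median 4 windows were called lower and 0 higher, where 26.7% were called, 17.5% lower and 9.17% higher. The members were chosen with these contrasts known, so nothing is read from their counts.

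Over the 7 members the median flank was 34.0%, and the median difference from the pool median was −7.11 percentage points, while over the 120 constructs tested it was −0.16. The median window of the members was 35.2%, and the median difference from the pool median was −9.32 percentage points, while over the same 120 constructs it was 0.10. The construct without a motif was alone in its pool, so each comparison with it is also one between pools.

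PKNOX1 (also called PREP1) belongs to the TALE class of homeodomain proteins and binds together with PBX partners. Its flank was 27.1% and 27.9% in the 2 libraries, against library medians of 43.2% and 41.9%. Both libraries were thus far below the typical construct, with a difference of −15.03 ± 1.48 percentage points (SD, n = 2). The level was the lowest flank of the class, and the difference ranked 4 from the lowest of 122. The drop was not even across the amplicon. Position 164, downstream of the motif, was 14.7% and 15.2%, the lowest of the 121 constructs with a site there, whose median was 33.6%. Position 187 was 20.1% and 18.9%, the next to lowest at that position. Upstream, position 101 was 46.4% and 49.7%, against a class median of 58.1%.

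Inside the PKNOX1 window there were 2 sites. Position 132 was 39.1% and 39.3%, and position 148, nearer the downstream end, was 23.6% and 20.5%. Among the 17 constructs with a site at 148 this was rank 2 from the lowest, and their median was 41.9%. Outside the window, all 14 of the backbone sites shared by at least 121 of the 122 constructs were lower than the class median, with deviations from −18.9 to −2.46 percentage points. The low levels of PKNOX1 therefore reached the ends of the amplicon, although the largest deviation lay downstream of the motif.

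ARID3B, the ARID factor of the set, had a flank of 29.0% and 28.1%, against library medians of 40.5% and 42.1%. Its window was the lowest of the members at 23.7% and 22.4%, against library medians of 39.5% and 44.7%. The libraries were close to each other, and the window differed from the pool median by −19.05 ± 4.62 percentage points (SD, n = 2). Position 147 was 13.7% and 15.9%, the lowest of 47 constructs with a site there (median 39.6%). Position 132 was 33.7% and 29.0%, the lowest of 30 constructs (median 47.7%). Each of its 2 window sites was thus the most protected reading at its position. Downstream, position 164 was 16.97% and 17.5%.

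CUX1, which binds DNA through cut repeats and a cut-type homeodomain, gave almost the same picture as ARID3B. Its flank was 28.9% and 29.1%, against library medians of 42.3% and 41.0%, and its window was 27.5% and 28.8%, against 44.1% and 46.6%. The flank differed from the pool median by −12.6 ± 0.987 and the window by −17.2 ± 0.906 percentage points (SD, n = 2 each). Position 147 was 18.7% and 19.9%, second among the 47 constructs only to ARID3B, and position 164 was 16.97% and 17.9%. The site at 133 was 36.3% and 37.6%, rank 6 from the lowest of 35 constructs.

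Over the 9 sites before the window ARID3B and CUX1 were less low than PKNOX1, and downstream all 3 were low. This did not hold at position 101, the upstream site nearest the motif. There ARID3B was 46.2% and 42.6% and CUX1 48.1% and 48.0%, beside 46.4% and 49.7% for PKNOX1. Of the 14 shared sites outside the window, 10 were below the class median for CUX1 and 9 for ARID3B, and their deviations ranged from −16.5 to 4.44 and from −16.7 to 6.13 percentage points. At position 68 CUX1 was 58.5% and 58.8%, against a class median of 58.4%, and over the 9 sites before the window its mean was 52.4% ± 0.521 (SD, n = 2), rank 52 from the lowest of 122. The same stretch was 51.8% ± 3.79 for ARID3B, rank 43, and 45.3% ± 1.90 for PKNOX1, rank 8 (SD, n = 2 each). Against the medians of their own libraries ARID3B was lower there than CUX1. The differences were −1.42 ± 0.154 percentage points for CUX1, −5.16 ± 3.78 for ARID3B and −8.95 ± 2.16 for PKNOX1 (SD, n = 2 each). These ranked 41, 12 and 1 from the lowest of 122. Over the 5 sites after the window the means were 26.4% ± 0.340 for CUX1, 27.3% ± 0.380 for ARID3B and 23.5% ± 0.700 for PKNOX1 (SD, n = 2 each), ranks 5, 9 and 1. The low stretch of CUX1 thus ran past the flank on the downstream side, with position 197 at 27.7% and 26.7%, against a class median of 34.7%. At the last site, position 243, CUX1 was 36.03% and 34.8%, above the class median of 31.1%.

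TGIF1 is another TALE homeodomain protein, a repressor that acts on TGF-beta and retinoid signalling. Its flank was 36.5% and 35.1%, against library medians of 46.2% and 39.7%. The flank was below the median in both libraries, but by unequal amounts, with a mean difference of −7.11 ± 3.59 percentage points (SD, n = 2). The window was 37.0% and 35.9%, against 47.6% and 43.9%. The site at 148 was 28.3% and 29.4%, rank 4 from the lowest of 17, and the site at 132 was 42.7% and 41.7%, rank 9 of 30. Position 164 was 25.7% and 26.5%. TGIF1 was higher than PKNOX1 at each of these sites. Both were lower downstream than upstream, as was the class, whose medians were 58.1% at 101 and 33.6% at 164.

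The series also held a construct named TGIF1_r, whose suffix the labels do not define, in the same pool as TGIF1. It allowed a comparison within each library. The TGIF1_r window was 48.1% and 43.05%, and TGIF1 was lower in both libraries, with a mean difference of −9.13 percentage points. On the log2 scale this window difference was −0.53. The TGIF1_r flank was 45.6% and 39.5%. TGIF1 was again lower in both libraries, with a log2 difference of −0.40. Over the 14 motifs with such a partner limma called the TGIF1 window lower and did not call its flank. In the windows 57.1% of the pairs were called, 50% lower and 7.14% higher, and at the flanks 57.1% were called, 7.14% lower and 50% higher. These values were among those known when the members were selected, so nothing is read from the calls.

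The pair share 2 window positions. At 148 TGIF1 was at 28.8% ± 0.811 and TGIF1_r at 44.5% ± 4.56, and at 132 they were at 42.2% ± 0.727 and 48.7% ± 1.78 (SD, n = 2 each). Upstream of the window the order was the opposite one: over its 9 sites TGIF1 was at 51.5% ± 1.87 and TGIF1_r at 46.5% ± 2.79 (SD, n = 2 each). The lower reading of TGIF1 was therefore found in the window and downstream of it as far as position 210. Position 164 of TGIF1_r was 37.1% and 32.1%. At the last site, 243, TGIF1 was the higher, at 30.3% and 30.9% beside 28.1% and 26.1%. At position 101 the libraries disagreed, with TGIF1 at 56.9% and 52.3% and TGIF1_r at 61.0% and 51.2%. These single-site and upstream values were not tested.

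OTX2 has a bicoid-type homeodomain. Its flank was 31.4% and 36.6%, a mean difference of −7.90 percentage points from the construct without a motif. The median construct of the same libraries was just as low, at 31.4% and 37.1%, so that OTX2 differed from its pool by −0.22 ± 0.355 percentage points (SD, n = 2). The window was 33.1% and 37.3%, against library medians of 33.6% and 42.8%. It was below the median in both, but with an SD of the difference (3.47) larger than its mean of −3.01 percentage points. At its 3 window positions (134, 146 and 150) OTX2 was at 39.3%, 35.5% and 30.9%, close to the medians of 41.8%, 35.2% and 32.7% over the constructs with a site there. Replicate 2 was higher than replicate 1 at every site of the construct. A low OTX2 level was thus shared with the rest of its pool, and whether it belongs to the motif or to those libraries cannot be told apart by the construct without a motif, which was in other libraries.

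PAX6 binds DNA with a paired domain as well as a homeodomain, and the labels do not say which of them its motif represents. Its flank was 46.2% and 48.8%, against library medians of 46.2% and 46.9%, and was thus at or above the typical construct. The window was 45.95% and 56.5%, against 46.4% and 50.2%, with an SD between libraries of 7.45 percentage points, the widest of the members. Position 149 was 50.7% and 62.1%, rank 23 from the lowest of the 24 constructs with a site there, whose median was 36.3%. The sides of the PAX6 construct differed. Its 9 upstream sites averaged 49.0% ± 2.31 (SD, n = 2), rank 28 from the lowest of 122, against 58.1% ± 2.26 (SD, n = 2) without a motif. Its 5 downstream sites averaged 36.9% ± 5.98 (SD, n = 2), rank 95, against 33.4% ± 0.429 without a motif. Against the median of its own libraries the upstream sites were lower by −7.18 ± 4.26 percentage points (SD, n = 2). By that difference they ranked 6 from the lowest of 122. The downstream sites were not higher on that scale, with −3.39 and 3.67 percentage points in the 2 libraries.

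GBX2, like PAX6, was not low at the flank or in the window. Its flank was 48.1% and 47.8%, against library medians of 46.3% and 45.9%, and its window was 52.02% and 50.9%, against 45.6% and 46.98%. Both libraries were above the median in both regions, by 1.88 ± 0.0745 percentage points at the flank and 5.14 ± 1.75 in the window (SD, n = 2 each). None of its 14 shared sites was below the class median. The site at 144 was 53.4% in both libraries, the highest of 9 constructs, and the site at 147, where ARID3B and CUX1 were lowest, was 52.6% and 50.2%, rank 42 of 47.

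Because motifs bring their own GCH sites, window levels are means over different positions. Each member was therefore also set against the median of all constructs with a site at the same positions. On that scale the difference was −20.6 percentage points for ARID3B, −14.2 for CUX1 and −14.1 for PKNOX1, ranks 3, 8 and 9 from the lowest of 122. It was −5.25 for TGIF1, −1.34 for OTX2, 6.94 for GBX2 and 8.61 for PAX6. By this measure PKNOX1 was level with CUX1, TGIF1 was lower than OTX2 and PAX6 was higher than GBX2. ARID3B, CUX1 and PKNOX1 had 2 window sites each, as did 28.7% of the unphased constructs. The 35 constructs with 2 window sites had a median flank of 40.3%, the 41 with 3 sites one of 40.3%, the 34 with 4 sites one of 43.2% and the 12 with 5 sites one of 45.1%.

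Profiles outside the window were compared by Pearson's r of the deviations from the class median over the 14 shared sites, as a description over replicate means. The sites neighbour each other on the same molecules and are not independent. PKNOX1 was most like KLF4 (0.82), CUX1 (0.81) and TEAD1 (0.77). CUX1 was most like KLF4 (0.88), POU5F1B_r (0.88) and SOX2 (0.88), and ARID3B most like TEAD1 (0.90), ZFP423 (0.89) and KLF4 (0.89). Profiles shaped like these 3 were thus also found at motifs of zinc finger, TEAD and SOX factors and at POU5F1B_r, all in other pools. Pearson's r leaves out the size of the deviations, so a similar profile need not be as low. The mean flanks were 36.6% for KLF4, 33.3% for POU5F1B_r, 33.0% for SOX2, 31.9% for TEAD1 and 30.9% for ZFP423. Those of PKNOX1, ARID3B and CUX1 were lower, at 27.5%, 28.6% and 29.0%. TGIF1 was most like HMBOX1 (0.96), ARID3B (0.85) and ZFP423 (0.84), and OTX2 most like TBP (0.97), HSF2 (0.96) and RARA::RXRA_r (0.94). GBX2 was most like TCFL5 (0.89), GMEB1 (0.87) and the construct without a motif (0.84), and PAX6 most like TRP53 (0.88), E2F4 (0.88) and MAFG (0.86).

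A list of other homeodomain or ARID names matched 3 unphased constructs, all of the POU class, whose proteins pair a homeodomain with a POU-specific domain. Relative to the construct without a motif, limma called 1 of the 3 flanks lower and 0 higher, and 2 windows lower and 0 higher. Over all 121 constructs the shares were 23.1% lower and 14.9% higher for flanks, and 25.6% and 23.1% for windows. Relative to the pool median it called 0 flanks, and 1 window lower and 1 higher. There the shares over 120 constructs were 5.83% lower and 4.17% higher for flanks, and 17.5% and 9.17% for windows. With 3 constructs, nothing is read from these counts. POU2F1 had a flank of 33.9% ± 3.49 and a window of 33.9% ± 2.91. These were −7.99 and −8.16 percentage points from the construct without a motif, but only −3.23 and −5.64 from the median of its pool. POU5F1::SOX2, the composite site of OCT4 and SOX2, had a low window (24.4% ± 3.75) beside a flank of 45.2% ± 2.32, and POU5F1B was at 46.7% ± 7.47 in the window and 43.6% ± 5.86 at the flank (SD, n = 2 each). The median of the 3 was 43.6% at the flank and 33.9% in the window. The list did not hold the name of HMBOX1, a further homeobox protein, whose flank of 34.7% and window of 35.2% were both called lower than the construct without a motif and not called against the pool median.

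CUX1 was the single member placed in all 3 sequence contexts. In the nuc and non_nuc classes the window ran from position 176 to 203, and the flank held the same 7 positions in both, 4 before the window (140 to 157) and 3 after it (213 to 236). Without a motif the flank was 49.3%, 41.9% and 46.4% in nuc, and 54.4%, 64.5% and 62.7% in non_nuc. CUX1 and the construct without a motif were in different pools in each class. In non_nuc the construct without a motif itself stood apart from the median of its own libraries, by −6.55 ± 1.41 percentage points at the flank and 35.1 ± 6.41 in the window (SD, n = 3 each). In nuc these differences were −5.69 ± 6.62 and 7.87 ± 4.46.

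In nuc, the CUX1 flank was 47.6%, 42.1% and 40.004%, overlapping the construct without a motif. The difference of −0.15 ± 0.21 (log2, SE, n = 3 per group) did not pass limma's test (adjusted p = 0.694; 95% interval −0.57 to 0.27), in a class where 34.8% of 23 constructs were called, 8.7% lower and 26.1% higher. Library medians of its own pool were 46.4%, 42.8% and 43.97%, and against them the flank did not pass either (limma adjusted p = 0.762), where 25% of 24 were called, 8.33% lower and 16.7% higher. The CUX1 window was 23.6%, 17.7% and 16.8%, against 33.3%, 23.7% and 27.9% without a motif, so the highest CUX1 library lay just below the lowest control. This window difference of −0.70 ± 0.27 (log2, SE, n = 3 per group) passed narrowly (limma adjusted p = 0.0482), where 26.1% of constructs were called lower and 0% higher. It did not pass against the median of the pool (limma adjusted p = 0.186), where 37.5% were called, 16.7% lower and 20.8% higher. Nor did it pass against the construct without a motif without replicate 1 (adjusted p = 0.0802) or without replicate 3 (adjusted p = 0.407).

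In non_nuc, the CUX1 flank was 58.8%, 55.4% and 52.5%, overlapping the construct without a motif, and the difference of −0.29 ± 0.27 (log2, SE, n = 3 per group) did not pass limma's test (adjusted p = 0.506; 95% interval −0.84 to 0.25), in a class with 0% called lower and 21.7% higher. Against the median construct of the same libraries, at 63.8%, 60.6% and 58.8%, CUX1 was lower in 3 of 3 libraries, with a difference of −5.54 ± 0.669 percentage points (SD, n = 3), and this passed (limma adjusted p = 0.0147), where 50% of 24 constructs were called, 29.2% lower and 20.8% higher. It also passed against the construct without a motif when replicate 1 was left out (limma adjusted p = 0.01996). The CUX1 window was 49.9%, 43.2% and 41.3%, well below the 61.8%, 68.8% and 70.7% without a motif, a difference of −1.31 ± 0.34 (log2, SE, n = 3 per group; limma adjusted p = 0.000426), where 60.9% of constructs were called lower and 0% higher. The window also passed against the pool median (limma adjusted p = 0.0159), with a difference of −7.55 ± 1.40 percentage points (SD, n = 3), in a contrast with 54.2% called, 33.3% lower and 20.8% higher.

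The window comparison with the construct without a motif is limited in both classes by position: that construct had 1 window site, at 189, while CUX1 had sites at 182 and 196. In non_nuc the 2 CUX1 sites differed widely. Position 182 was 68.7%, 60.5% and 60.007%, overlapping the control site, and position 196 was 31.2%, 25.7% and 22.7%, rank 2 from the lowest of the 6 constructs with a site there (median 45.3%). In nuc, position 182 was 31.5%, 22.2% and 25.1%, and position 196 was 15.8%, 13.1% and 8.39%, rank 3 from the lowest of 6 (median 13.7%). The downstream site was the lower one in both classes, and the medians of all constructs at these positions had the same order, with 182 at 56.6% in non_nuc and 27.9% in nuc.

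The sides of the flank were divided after the values were seen and were not tested. They are given beside the construct without a motif, which was in another pool in each context. In non_nuc the 4 sites before the window were 79.3% ± 2.78, close to the 78.1% ± 4.86 without a motif, whereas the 3 sites after it were 23.9% ± 3.97 against 37.1% ± 7.46 (SD, n = 3 each). Each of these 3 downstream sites ranked 2 from the lowest of the 24 non_nuc constructs. Against the median of its own libraries, however, this side was −9.35 ± 2.40 percentage points for CUX1. For the construct without a motif it was −13.2 ± 1.28 (SD, n = 3 each), so CUX1 was not the lower of the 2 on that scale. In nuc the sites before the window were 64.1% ± 4.93 against 67.2% ± 4.25, and those after it 15.4% ± 4.50 against 17.5% ± 3.11 (SD, n = 3 each), both overlapping. In the unphased class both sides were lower with CUX1, at 48.05% ± 0.139 against 61.6% ± 3.32 upstream and 19.5% ± 0.200 against 32.1% ± 0.205 downstream (SD, n = 2 each).

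The effect of CUX1 over the construct without a motif was compared directly between nuc and non_nuc. At the flank the effect in percentage points was −2.64 for nuc and −4.99 for non_nuc. The effects differed by 0.14 ± 0.35 (log2, SE, n = 3 per group; 95% interval −0.54 to 0.82), which did not pass limma's test (adjusted p = 0.923). Of the 23 motifs tested 17.4% were called, 8.7% in each direction. In the window it was −8.94 and −22.3 percentage points, a difference of 0.61 ± 0.43 (log2, SE, n = 3 per group; 95% interval −0.24 to 1.47) that also did not pass (limma adjusted p = 0.331), where 34.8% of motifs were called higher and 0% lower. It passed when replicate 1 was left out (limma adjusted p = 0.0294). The unphased class has a different backbone, so its flank difference of −12.9 percentage points is given beside these without a test.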

How the data were processed

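Amplicon NOMe-seq libraries of mouse embryonic stem cells were analysed, 57 of the 115 in the series. The deposited values are a fraction per GCH position and construct, the share of reads methylated, as the authors made it. The submitters' processing notes name Trimmomatic 0.32. Aligner, caller, coverage filter and build are not given in the sources used here. Read counts were not used here, so depth is unknown. Construct sequences were not analysed here.

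The members and lists were chosen with earlier results of these data known. All 7 factors are described, each with its references and the 3 constructs with the most similar profile. A site entered a mean only if no library of its construct lacked it. The window was the gap between sites shared by at least 90% of a class's constructs that held the most other sites, and the flank reached 40 bp either side. Missing values numbered 4 of 4194 in unphased, 150 of 2868 in nuc and 292 of 2796 in non_nuc. Constructs with identical values in 2 pools (ARNTL in nuc, MAX::MYC in unphased) were counted once.

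Fractions were tested as log2((f + 0.01)/(1 − f + 0.01)) with limma 3.58.1 in R 4.3.3 over all constructs of a class, with Benjamini-Hochberg adjustment at 0.05. In the unphased flank test against the construct without a motif every construct had the same standard error. In the CUX1 tests against that construct, and between nuc and non_nuc, limma likewise took the spread mainly from all motifs tested. Their SE and p-values therefore do not rest on the spread of CUX1 alone. The same control libraries entered for every motif, which was not allowed for, so these p-values may be too small. Differences from the pool median and from the partner were taken within a library, except ESRRB, whose partner was in another pool. On simulated data 97.9% to 100% of constructs shifted by 2 log2 units were recovered, with 0.879% to 1.83% of the others called. Only flank contrasts were simulated, without differences between pools. The shift was larger than every difference given for the members, so recovery of differences of their size was not measured. Alternatives changed the offset, scale, sites, flank, reference, replicates and replicate block. Python 3.11.15, numpy 2.4.6 and pandas 2.3.3 were used.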

Additional observations from a re-analysis of the deposited data

How the results depend on the processing

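Flanks called against the unphased pool median numbered 12, and 30 with a flank of 20 bp, 29 with 60 bp and 50 with the pool mean as reference. ARID3B, CUX1 and PKNOX1 were called lower in each of these fits. The members were selected on these same unphased values, so nothing is read from their calls here or in the unphased fits below. Windows called against the pool median went from 32 to 49 on fractions and 71 with the pool mean, and those called against the no-motif construct from 59 to 27 with a replicate block, in which OTX2 and TGIF1 were no longer called. TGIF1 joined the lower flanks against the construct without a motif with an offset of 0.05, on fractions, with 20 or 60 bp and with the replicate block, and OTX2 left them with 20 bp. In the same contrast GBX2 was called higher on fractions, with 20 or 60 bp and with the block, and PAX6 with 20 bp and with the block. Without a replicate in turn, the unphased fits have no residual spread and were not run, and the TGIF1 differences from TGIF1_r (log2, no test) ranged from −0.53 to −0.26 at the flank and −0.65 to −0.42 in the window. The TGIF1 window was −9.13 percentage points on fractions and −0.53 with no replicate block, and was called in neither. The CUX1 window in nuc did not pass with an offset of 0.05 (−0.61, limma adjusted p = 0.0522), on fractions (−8.94 percentage points, adjusted p = 0.0778) or against the pool median (−0.32), and ranged from −0.79 to −0.59 without a replicate. With the replicate block it passed (−0.70, limma adjusted p = 0.0156). The CUX1 flank in non_nuc passed against the pool median (−0.32) and ranged from −0.57 to −0.14 without a replicate. The CUX1 difference between nuc and non_nuc ranged from −0.06 to 0.39 at the flank and from 0.42 to 0.91 in the window without a replicate. For these results the cause was not tested. The block changed no CUX1 call. Replicate numbers were not taken to pair libraries, since correlations between same-numbered libraries of CUX1 and the no-motif construct, as deviations from their means, ranged from −0.63 to 0.19. With 2 or 3 libraries and no depth, differences of a few percentage points were not resolved.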

Other observations

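HMBOX1, a homeobox protein known for binding telomeric repeats, was not in the set and was picked after its values were seen, because its profile was the nearest to that of TGIF1. It shared a pool with PKNOX1. Its flank was 34.5% and 34.9%, against library medians of 43.2% and 41.9%, and its window was 35.3% and 35.1%, against 39.9% and 40.1%. Both libraries were lower in both regions, and the sites after the motif carried most of it, with position 164 at 23.3% and 23.2% and position 101 at 53.6% and 54.7%. In the same 2 libraries PKNOX1 was lower still, at 14.7% and 15.2% at position 164.

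HSF2 and TEAD1, motifs of the heat shock and TEAD families that appeared among the nearest profiles, had flanks of 30.6% and 31.9%, ranks 6 and 8 from the lowest of 122, close behind the 29.0% of CUX1 at rank 3. By level, the low end of the class thus also held motifs of unrelated families. Both constructs were in pool 9, and their levels are not set against the median of their own libraries. Whether the low levels belong to the motifs or to those libraries was not tested.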
